A study of Homo sapiens with 18 samples.

Results

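The heat shock response genes are 10 genes that were picked by their symbol in the deposited count tables, out of 57905 Ensembl genes counted in every library. They encode HSPA1A and HSPA1B, the stress-inducible HSP70 chaperones, HSPA8, the constitutive HSP70, HSPH1, an HSP110 chaperone, DNAJB1, an HSP40 co-chaperone, HSP90AA1, the inducible cytosolic HSP90, HSPB1, a small heat shock protein, BAG3, a co-chaperone of HSP70, HSPD1, the mitochondrial chaperonin HSP60, and HSF1, the transcription factor of the response. All 10 genes passed the filter on low counts in each of the 3 experiments.

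The cells were BE(2)-m17, a human neuroblastoma line, and sequencing covered 3 experiments of 6 libraries, 3 from ABCC1-overexpressing cells and 3 from cells with an empty vector. All 18 cultures carried the pSBbi-Hyg-APP vector, a transposon with a codon-optimized APP gene and a hygromycin marker. The ABCC1-overexpressing cells carried pSBbi-Pur-ABCC1 in addition, with codon-optimized ABCC1, an export pump of the cell membrane, and the control cells, labelled Puro, carried the empty pSBbi-Pur vector. In each experiment 14000000 cells were plated per well and lysed on day 4. The first experiment used a poly(A) kit (TruSeq RNA v2) and the second and the third a total RNA kit for low input (SMARTer Pico v2), and the last 2 are taken here as cryopreserved cells and newly transfected cells, in the order in which the study names them. For the first experiment the labels name both kits, and the one the study's methods name was used. Each line is a stably selected transfected population. Only the cells taken as the third experiment are named by the paper as newly transfected. The first and the second experiments are therefore not taken as separate transfections. The paper describes weekly plating of each line, with the cells lysed for RNA, and neither it nor the labels name separate transfections of replicates. The p-values measure only the spread between these libraries.

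In a resting cell HSF1 is held inactive by chaperones, and unfolded protein draws these chaperones away. HSF1 then forms trimers, gathers in the nucleus and binds heat shock elements, arrays of the 5-base unit NGAAN in alternating orientation, in front of chaperone genes. HSP70 folds proteins with the help of J-domain proteins such as DNAJB1, which deliver substrates, and of HSPH1 and BAG proteins, which release bound nucleotide. HSPB1 holds unfolding proteins in a soluble state, and HSP90 finishes the folding of kinases and receptors.

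The libraries held 8866994 to 57937653 assigned read pairs, the most in the first experiment and the fewest in the third. Exogenous ABCC1 had 0 to 15 counts in the control libraries and 51035 to 594404 in the ABCC1 libraries. All 10 markers of adrenergic neuroblastoma (MYCN, DBH and others) had at least 1 CPM (read pairs on a gene relative to all assigned pairs of its library) in both lines of every experiment, and their summed level was 7202 to 14609 CPM. It was 13593 to 14609 in the controls and 11558 to 12809 with ABCC1 in the first experiment, with 6 of the 10 markers called lower and 2 higher there and 2 lower in the third experiment, and in the other experiments the ranges were 7202 to 9150 against 9185 to 10282 and 8388 to 12697 against 9426 to 10642. The 10 markers of Schwann and mesenchymal cells summed to 166 to 167 CPM in the controls and 178 to 183 with ABCC1 in the first experiment, with 6 or 7 of them at 1 CPM or more and 3 called higher and 2 lower, to 98.7 to 134 and 94.6 to 104 in the second, and to 170.4 to 175 and 151 to 159 in the third. The part of these shifts in the members' values was not tested. Reads on 372 olfactory receptor genes, which neuroblastoma cells are not expected to use and which serve here as a measure of background, were at 0.00380 to 0.00525 CPM per kilobase in the first experiment. They rose to 0.520 to 0.762 in the controls and 0.125 to 0.426 with ABCC1 in the second, and to 1.37 to 1.79 and 1.03 to 1.47 in the third. In both the control libraries had more of them on average. A fit with this level as a covariate therefore cannot fully separate background from the effect of ABCC1. ABCC1 replicate 3 of the first experiment stood apart from replicates 1 and 2 (chi-square of 21.5 and 16.1 per degree of freedom, against 1.48 between those), and values without it are given where it decides a result.

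Heat shock elements were looked for in the 250 bases before each annotated start, as the 8-letter cores GAANNTTC and TTCNNGAA, which hold 2 adjoining units head to head or tail to tail. Each core reads the same on both strands, and neighbouring matches can overlap. RefSeq promoters (GRCh38.p14) were matched for 9 of the 10 genes, with 13 starts, HSF1 being the one without an entry. At least 1 core stood before a start of 7 genes, and 7 of the 13 starts had one, whereas 11.6% of all 35116 promoters in the table did. HSPH1 and BAG3 had no match in this window. The sequences below are the 120 bases that hold the cores nearest the start, 5′ to 3′ on the gene's strand with the cores in capitals, and are shown for DNAJB1 and HSPB1, whose counts rose with ABCC1, for the near-identical HSPA1A and HSPA1B, and for HSP90AA1, whose level set the second experiment apart.
DNAJB1 (chr19:14518398-14518517, minus strand): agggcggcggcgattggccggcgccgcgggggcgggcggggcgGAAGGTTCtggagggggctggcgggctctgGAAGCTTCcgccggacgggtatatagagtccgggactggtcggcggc
HSPB1 (chr7:76302435-76302554, plus strand): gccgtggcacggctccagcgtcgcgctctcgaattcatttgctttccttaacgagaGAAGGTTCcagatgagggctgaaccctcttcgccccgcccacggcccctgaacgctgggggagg
HSPA1A (chr6:31815381-31815500, plus strand): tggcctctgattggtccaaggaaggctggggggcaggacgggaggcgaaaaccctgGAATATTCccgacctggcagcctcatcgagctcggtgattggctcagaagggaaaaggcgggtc
HSPA1B (chr6:31827577-31827696, plus strand): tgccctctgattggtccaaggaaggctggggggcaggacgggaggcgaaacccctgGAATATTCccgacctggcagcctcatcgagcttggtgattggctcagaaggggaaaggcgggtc
HSP90AA1 (chr14:102087049-102087168, minus strand): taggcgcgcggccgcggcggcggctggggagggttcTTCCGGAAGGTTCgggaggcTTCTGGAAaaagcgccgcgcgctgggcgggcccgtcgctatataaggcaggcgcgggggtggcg

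The first base of the cores lay 77 and 47 bases before the second of 3 listed starts of DNAJB1, and the other starts of this gene had none. In HSPB1 the core lay 182 bases before the start, in HSPA1A 106 and in HSPA1B 105. HSP90AA1 had overlapping cores at 88 and 83 bases and another at 68 before its second start, and HSPA8 had overlapping pairs at 230 and 225 and at 55 and 50 bases. HSPD1 had 3 cores, at 245, 240 and 235 bases before its second start. HSPA1A and HSPA1B also had a TATAAA box, 30 and 29 bases before the start, which 10.7% of all promoters held on either strand in the 250 bases, and CCAAT boxes, which 32.01% held. These are matches of letters, and no binding was measured.

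**Figure D1:**
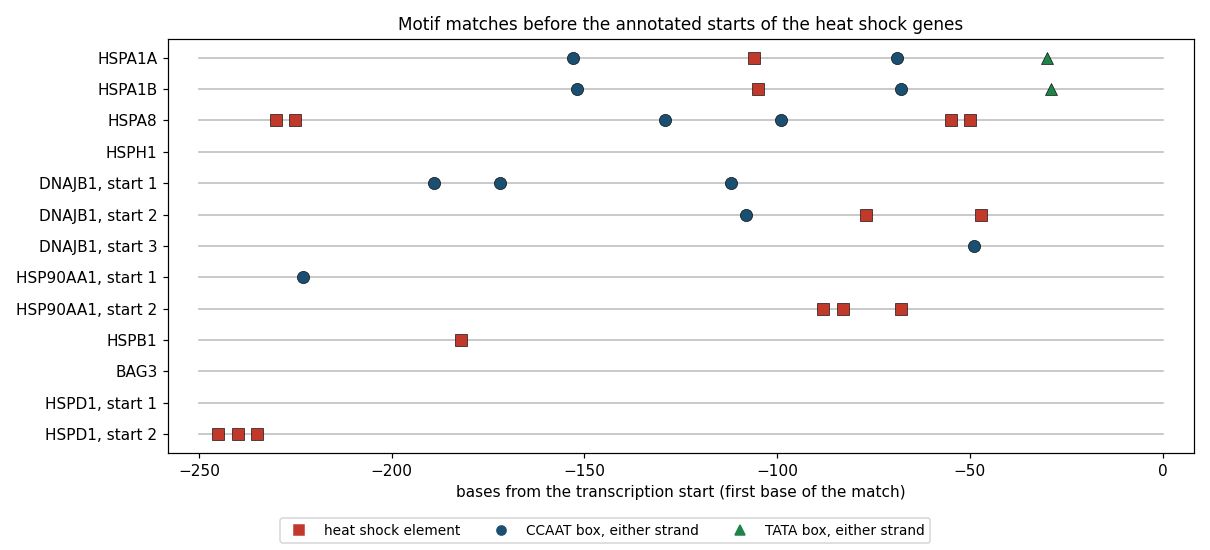
Positions of motif matches (x axis, bases from the transcription start, first base of the match) before 13 annotated starts of 9 heat shock genes (rows). Squares are heat shock element cores, found at 7 starts and within 106 bases of the start in HSPA1A, HSPA1B, HSPA8, DNAJB1 and HSP90AA1, circles are CCAAT boxes and triangles TATAAA boxes.

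Levels between genes were compared per kilobase of exon. In the control cells of the first experiment HSPA8 was the highest, at 470 ± 13.1 CPM per kilobase (SD, n = 3), followed by HSP90AA1 at 125 ± 4.53 and HSPD1 at 105 ± 4.43. Next came BAG3 at 35.6 ± 1.13, HSPH1 at 34.5 ± 0.627, HSF1 at 31.9 ± 1.83 and HSPB1 at 31.4 ± 2.82, where BAG3 and HSPH1, and HSF1 and HSPB1, differed by less than 1 SD, and then DNAJB1 at 21.9 ± 1.31. HSPA1B at 5.11 ± 0.194 and HSPA1A at 3.25 ± 0.0618 were the lowest. These levels use the whole exon length, whereas most of HSPA1A and HSPA1B could not be counted, as given next, so the levels of this pair are understated and their rank is uncertain.

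The way reads were counted limits what is known of the inducible HSP70 pair. Read pairs that aligned to several places were not counted, and of all 50-base windows of the HSPA1A transcript 72.6% were also found in HSPA1B. For HSPA1B the share found in other genes was 73.5%, and with 100-base windows the shares were 69.9% and 72.7%. In HSPD1 24.8% of the 50-base windows were shared with other genes, mostly pseudogenes, in HSP90AA1 17.5%, in HSPA8 15.4%, in HSPB1 11.4% and in DNAJB1 2.57%, while HSPH1, BAG3 and HSF1 had none. The counts of HSPA1A and HSPA1B therefore come from the parts in which they differ, and they are given singly and summed. Reads on exons shared with another gene of either strand were not counted, since the counting ignored strand. The bases shared with any 1 gene came to at most 6.62% of a member's exons, and include 281 of HSPD1 (with HSPE1), 211 of DNAJB1 (with TECR), 197 of HSP90AA1 (with WDR20), 133 of HSF1 and 80 of HSPA1A (with HSPA1L). As counted over the whole exon length, HSPA1A and HSPA1B were also not far above background in the third experiment. There the olfactory receptor level came to 55.9% of that of HSPA1A in control cells and 24.8% in ABCC1-overexpressing cells. The same ratio was 38.2% and 21.7% for HSPA1B, 17.7% and 6.56% for DNAJB1 and 7.69% and 3.45% for HSPB1. Since the levels of HSPA1A and HSPA1B are understated, the ratios of this pair are overstated beside those of the other members.

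**Figure D2:**
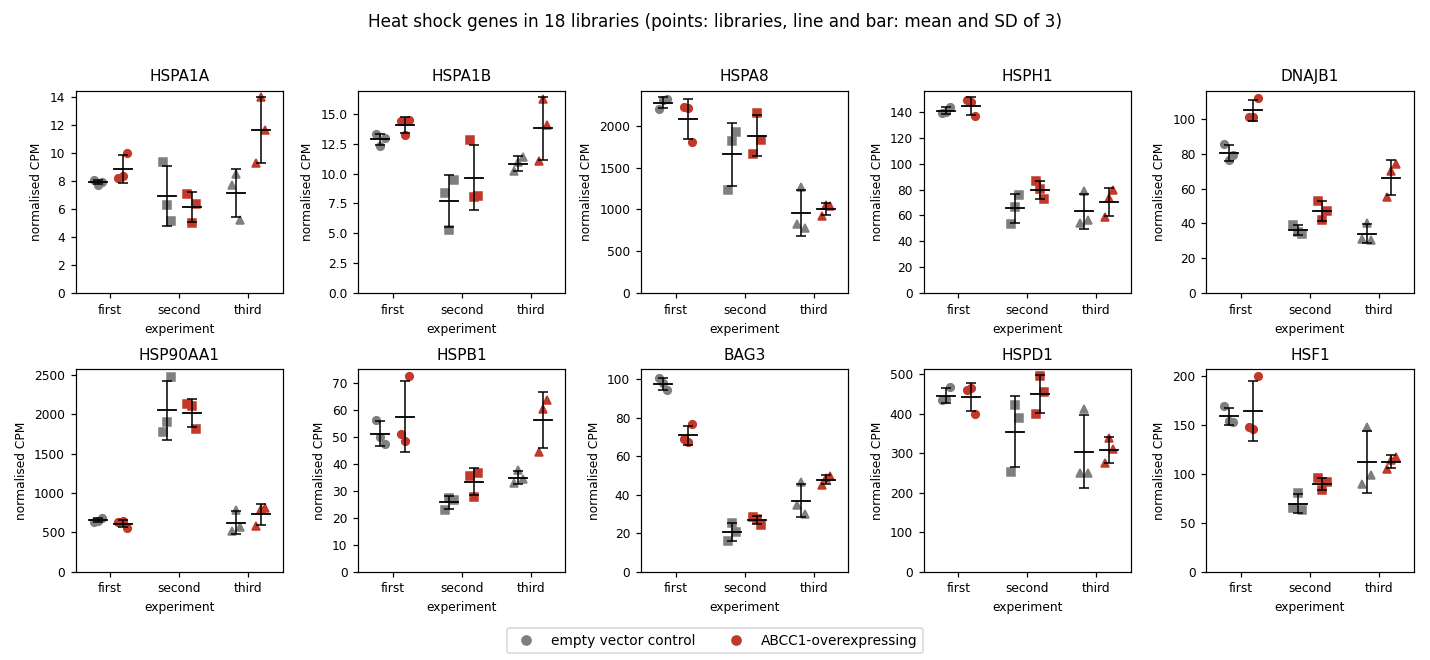
Normalised CPM (y axis, linear from 0) of the 10 heat shock genes in 18 libraries by experiment (x axis), with grey points for control libraries, red points for ABCC1 libraries, and lines and bars for the mean and SD of 3 libraries. DNAJB1 has its 3 ABCC1 libraries above its 3 control libraries in every experiment, and HSP90AA1 lies at 1769 to 2471 in all 6 libraries of the second experiment.

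DNAJB1 (ENSG00000132002, GRCh37 chr19:14625582-14640582, minus strand), the J-domain protein that activates the ATPase of HSP70, was the member with the clearest rise. In the first experiment it had 85.9, 76.5 and 79.4 normalised CPM in control replicates 1, 2 and 3, and 102, 102 and 112 in the ABCC1 replicates. In the second it had 39.2, 35.3 and 34.0 in the controls and 52.8, 41.8 and 47.1 with ABCC1. In the third it had 31.3, 40.5 and 30.4 in the controls and 55.1, 70.0 and 74.4 with ABCC1. In each experiment the ABCC1 libraries all lay above the control libraries. The log2FC was 0.38 ± 0.06 (SE) in the first experiment (edgeR quasi-likelihood test, adjusted p = 0.00041), 0.39 ± 0.16 in the second (edgeR adjusted p = 0.16) and 0.96 ± 0.17 in the third (edgeR adjusted p = 3.95e-05), the last a 1.95-fold rise. With size factors taken from genes of at least 10 CPM, the log2FC of the second experiment was 0.11 and that of the third 0.86 (edgeR adjusted p = 1.5e-07). With the background reads as a covariate the third experiment gave 0.55 and the call was lost (edgeR adjusted p = 0.069). In the first experiment it was lost only when the spread was shared across all 18 libraries (log2FC 0.49, edgeR adjusted p = 0.078).

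HSPB1 (ENSG00000106211, GRCh37 chr7:75931861-75933612, plus strand), the small heat shock protein that also protects the actin skeleton, rose in the newly transfected cells. There it had 32.9, 37.7 and 34.3 CPM in the control replicates and 44.5, 60.4 and 63.9 in the ABCC1 replicates, with no overlap. The log2FC was 0.69 ± 0.16 (edgeR adjusted p = 0.0059). The call was lost without control replicate 1 (log2FC 0.68, edgeR adjusted p = 0.059), ABCC1 replicate 2 (0.64, edgeR adjusted p = 0.094) or ABCC1 replicate 3 (0.59, edgeR adjusted p = 0.13), and with the background reads as a covariate (0.30, edgeR adjusted p = 0.55). In the second experiment HSPB1 had 23.1, 27.5 and 26.7 CPM in the controls and 35.6, 27.7 and 36.8 with ABCC1, again with no overlap (log2FC 0.37 ± 0.16, edgeR adjusted p = 0.18). In the first it had 56.3, 50.1 and 47.3 against 51.3, 48.6 and 72.6 CPM, where ABCC1 replicate 3 alone stood high (log2FC 0.17 ± 0.14, and −0.04 without that library).

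BAG3 (ENSG00000151929, GRCh37 chr10:121410882-121437331, plus strand), which links HSP70 to small heat shock proteins and to autophagy, was the member that fell. In the first experiment it had 101, 97.9 and 94.5 CPM in the control replicates and 68.7, 67.1 and 76.5 in the ABCC1 replicates, a log2FC of −0.46 ± 0.05 (edgeR adjusted p = 9.2e-05). All 3 ABCC1 libraries lay below all 3 control libraries, and without ABCC1 replicate 3 the log2FC was −0.52. The call was lost with the spread shared across the 18 libraries (log2FC −0.36, edgeR adjusted p = 0.35). The second experiment gave BAG3 15.96, 25.1 and 20.5 CPM in the controls and 28.2, 27.4 and 24.2 with ABCC1, and in the third 34.5, 46.6 and 29.7 against 45.0, 48.5 and 49.7, with the groups overlapping in both. The log2FC was 0.37 ± 0.17 in the second and 0.37 ± 0.16 in the third (edgeR adjusted p = 0.21 and 0.24), neither of which passed the test, but without control replicate 2 the third gave 0.58 and did (edgeR adjusted p = 0.0053). Without single libraries the second ran from 0.24 to 0.55, with no value passing.

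HSPA1A (ENSG00000204389, GRCh37 chr6:31783291-31785723, plus strand) had 350, 211 and 250 raw counts in the control replicates of the first experiment and 463, 270 and 581 in the ABCC1 replicates, or 8.05, 7.75 and 7.93 against 8.19, 8.37 and 10.0 CPM. In the third experiment it had 7.74, 8.53 and 5.21 CPM in the controls and 9.31, 14.004 and 11.6 with ABCC1, from 50 to 163 counts per library. The groups did not overlap in either experiment, and the log2FC of 0.70 ± 0.23 in the third missed the threshold (edgeR adjusted p = 0.077), as did that of 0.17 ± 0.09 in the first (edgeR adjusted p = 0.19), which was 0.061 without ABCC1 replicate 3. The third experiment's value passed it under 7 of 14 other settings, DESeq2 among them, with edgeR and DESeq2 adjusted p-values from 0.010 to 0.85 over the 14. In the second experiment the groups overlapped, with 9.33, 6.26 and 5.15 CPM in the controls and 7.07, 4.99 and 6.32 with ABCC1 (log2FC −0.17 ± 0.28).

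HSPA1B (ENSG00000204388, GRCh37 chr6:31795512-31798031, plus strand), the neighbouring copy, had 13.3, 12.3 and 13.005 against 14.4, 13.3 and 14.5 CPM in the first experiment, 8.40, 5.29 and 9.49 against 12.8, 8.02 and 8.16 in the second, and 10.2, 10.98 and 11.4 against 11.02, 16.2 and 14.1 in the third. Its groups overlapped in all 3 experiments and none gave a call, with log2FC of 0.13 ± 0.07, 0.33 ± 0.26 and 0.35 ± 0.20. Single libraries moved these values, with none passing the test. The second was 0.084 without ABCC1 replicate 1, 0.12 without control replicate 2 and 0.52 without control replicate 3, and the third 0.22 without ABCC1 replicate 2 and 0.53 without ABCC1 replicate 1. With the counts of both copies summed before the fit, the log2FC was 0.14 ± 0.06 in the first, 0.11 ± 0.19 in the second and 0.50 ± 0.17 in the third (edgeR adjusted p = 0.10, 0.76 and 0.092).

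HSP90AA1 (ENSG00000080824, GRCh37 chr14:102547075-102606036, minus strand) differed little between the lines and much between the experiments. In the second experiment it had 1769, 1907 and 2471 CPM in the control replicates and 2134, 2103 and 1811 in the ABCC1 replicates, whereas the first had 637, 646 and 682 against 632, 646 and 555 and the third 519, 784 and 571 against 576, 800 and 806. The mean of the second was 3.21 times that of the first and 3.01 times that of the third. No other member stood higher in the second experiment than in both others, and HSP90AB1, its constitutive paralog, had 1.27 times the level of the first and 1.08 times that of the third. These levels were normalised within each experiment. The second and the third experiments share the kit and differ in their cells, while the first used another kit. Differences of kit and of cells cannot be told apart in the ratio to the first. The log2FC for ABCC1 was −0.10 ± 0.06, −0.02 ± 0.21 and 0.22 ± 0.22 in the first, second and the third experiments, and none passed the test. The first was −0.036 without ABCC1 replicate 3, and the third ran from 0.14 to 0.43 without single libraries.

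HSPA8 (ENSG00000109971, GRCh37 chr11:122928197-122933938, minus strand), the housekeeping HSP70 that also uncoats clathrin vesicles, had 2205, 2310.5 and 2319 CPM in the controls of the first experiment and 2222, 2218 and 1803 with ABCC1. The 2 first ABCC1 libraries lay within the control range and replicate 3 below it, and the log2FC was −0.13 ± 0.08, or −0.036 without replicate 3. In the second it had 1229.9, 1822 and 1931 CPM against 1666, 2157 and 1833, and in the third 825, 1274 and 775 against 916, 1053 and 1039. The groups overlapped in both (log2FC 0.18 ± 0.22 and 0.07 ± 0.23), and the controls alone spanned more than the difference between the lines. Without single libraries the log2FC of the second ran from 0.032 to 0.31.

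HSPD1 (ENSG00000144381, GRCh37 chr2:198351305-198381461, minus strand), which folds proteins in the mitochondrial matrix, had 434, 435 and 467 CPM in the controls and 461, 465 and 400 with ABCC1 in the first experiment. In the second it had 252, 421 and 389 against 400, 495 and 453, where control replicate 1 alone stood low, and in the third 249.9, 411 and 250.5 against 274, 338 and 311. The log2FC were −0.01 ± 0.06, 0.35 ± 0.20 and 0.02 ± 0.20, with overlapping groups in each experiment, and the first was 0.056 without ABCC1 replicate 3 and the second 0.18 without control replicate 1. HSPH1 (ENSG00000120694, GRCh37 chr13:31710762-31736525, minus strand), the nucleotide exchange factor of HSP70, had 140, 140 and 144 CPM in the controls of the first experiment and 150, 148 and 137 with ABCC1, 53.3, 66.8 and 76.2 against 86.4, 80.2 and 72.7 in the second, and 54.4, 78.7 and 56.3 against 58.7, 73.8 and 79.7 in the third. The groups overlapped in each, and none of its log2FC of 0.04 ± 0.04, 0.29 ± 0.17 and 0.16 ± 0.17 passed the test. The first was 0.076 without ABCC1 replicate 3 and 0.012 without ABCC1 replicate 1. The second was 0.18 without control replicate 1, and the third ran from 0.075 without ABCC1 replicate 3 and 0.10 without control replicate 1 to 0.33 without ABCC1 replicate 1 and 0.36 without control replicate 2.

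HSF1 (ENSG00000185122, GRCh37 chr8:145515280-145538385, plus strand), the regulator of the other members, had 169, 154 and 152 CPM in the controls of the first experiment and 148, 146 and 199 with ABCC1. Replicates 1 and 2 with ABCC1 lay below all controls and replicate 3 above them, and the log2FC of 0.05 ± 0.11 turned to −0.11 ± 0.04 without replicate 3, which passed the test (edgeR adjusted p = 0.027). The second experiment had HSF1 at 64.9, 80.3 and 63.3 CPM in the controls and 95.2, 83.0 and 91.0 with ABCC1, with no overlap, but the log2FC of 0.37 ± 0.17 did not pass (edgeR adjusted p = 0.20). In the third it had 89.0, 148 and 98.4 CPM in the controls and 105, 114 and 117 with ABCC1, overlapping groups with a log2FC of 0.003 ± 0.18. The activity of HSF1 rests largely on the protein, which was not measured.

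By experiment, 2 of the 10 members were called in the first, DNAJB1 up and BAG3 down, where 37.6% of all 16995 genes tested were called at an adjusted p of at most 0.05. In the second none was called by edgeR, against 1.7% of 34091 genes. There 4 members, DNAJB1, HSPB1, BAG3 and HSF1, had an unadjusted p under 0.05, as did 7243 of the 34091 genes, and DESeq2 called DNAJB1. In the third 2 were called, both higher with ABCC1, against 2.8% of 36509 genes called in all and 2.03% called higher. Among genes of at least 10 CPM 41.2% were called in the first, 4.48% in the second and 7.23% in the third, with 5.83% called higher in the third. The groups did not overlap for 3 members in each experiment. In the first these were HSPA1A, DNAJB1 and BAG3 (50.4% of all genes), in the second DNAJB1, HSPB1 and HSF1 (29.8%), and in the third HSPA1A, DNAJB1 and HSPB1 (19.5%). The exact permutation test of log2 CPM gave p = 0.1 for each of these, the smallest that 3 libraries against 3 allow.

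The members need to be read against genes of like level, since the middle of the second and the third experiments did not lie at 0. The median log2FC of all genes tested was 0.01, −0.19 and −0.09 in the first, second and the third experiments, whereas that of genes with at least 10 CPM in every library was 0.005, 0.26 and 0.10. The median of the 10 members was 0.04, 0.34 and 0.28. In the second experiment 84.7% of the 9124 genes of at least 10 CPM had a log2FC above 0, so a value above 0 did not set members of that level apart from other expressed genes. Of the 8 members with such a value HSPA1B was not of that level, with as little as 5.29 CPM in a library, and neither was HSPA1A. Among all genes tested 40.7% were above 0. With size factors from genes of at least 10 CPM, the log2FC of the members in the second experiment ran from −0.46 in HSPA1A to 0.12 in BAG3, and the median of all genes moved to −0.45. In the third experiment the same scaling moved that median to −0.20 and left DNAJB1 and HSPB1 as the 2 called members. Genes called higher and lower numbered 425 and 156 in the second experiment and 741 and 280 in the third, and 32 and 183, and 975 and 861, with this scaling. In the first experiment the numbers were 3040 and 3342, and 3103 and 3294. In the third RLE size factors gave 966 higher and 199 lower, and the background covariate 189 and 599.

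**Figure D3:**
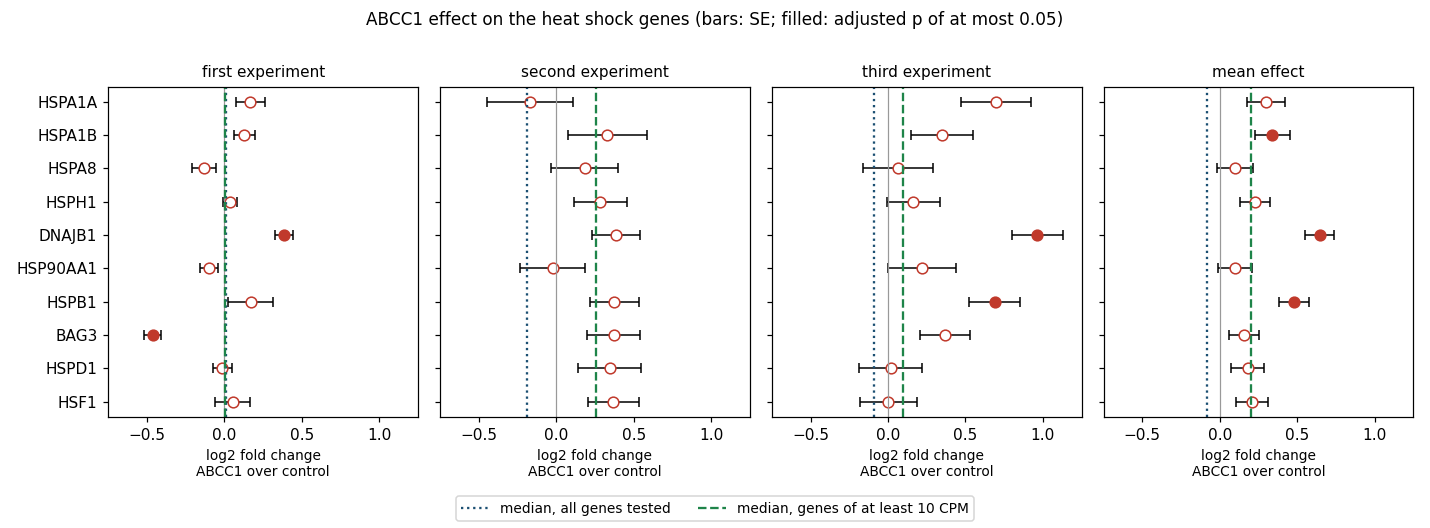
Log2 fold change of ABCC1-overexpressing over control cells (x axis, bars are SE) of the 10 heat shock genes (rows) in each experiment and as the mean of the 3 effects, with filled points for genes called at an adjusted p of at most 0.05. The dotted line marks the median of all genes tested and the dashed line that of genes with at least 10 CPM in every library, which in the second experiment lies at 0.26, among the members.

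The mean of the 3 effects was tested over all 18 libraries with 1 estimate of spread per gene. DNAJB1 rose by 0.65 ± 0.09 (edgeR adjusted p = 5.3e-07), HSPB1 by 0.48 ± 0.10 (edgeR adjusted p = 0.00026) and HSPA1B by 0.34 ± 0.11 (edgeR adjusted p = 0.032). The calls of DNAJB1 and HSPB1 held in each of 22 other settings, and that of HSPA1B was lost in 12 of them, with DESeq2, with RLE size factors and with at least 10 counts in every library among the 12. The background covariate and the size factors from genes of at least 10 CPM were not run on the mean effect. In the third experiment that covariate ended the calls of DNAJB1 and HSPB1. The other 7 members were between 0.10 and 0.30 and did not pass. Among all 46225 genes tested 12.9% were called and 9.38% were called higher, but among the 8251 genes of at least 10 CPM in every library 40.6% were called and 38.1% were called higher, with a median of 0.20. The median of the members was 0.22. The joint scaling spanned libraries of both kits, with normalisation factors from 0.657 to 1.85, and with RLE size factors 3094 genes were called higher and 2316 lower in place of 4338 and 1641. With at least 10 counts in every library the balance turned, to 2437 higher and 3004 lower of 14773 genes and a median of −0.03. Without control replicate 2 of the third experiment, in which all 10 members lay above their group mean, 7 members were called, as were 7196 of 48614 genes.

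The effect of ABCC1 was called different between experiments for none of the members by edgeR, where 1.19% of all genes were called. Those 551 genes became 893 with DESeq2, 1113 without ABCC1 replicate 3 of the second experiment, and 334, 360 and 363 without ABCC1 replicate 1, control replicate 3 and ABCC1 replicate 3 of the first. On simulated data the edgeR test of this difference recovered 0% of genes changed by a log2 of 0.5 in the second experiment alone. For a log2 of 1 it recovered 14%, so a missing call does not show equal effects. At an unadjusted p under 0.05 edgeR gave 3 members, BAG3, DNAJB1 and HSPA1A (edgeR adjusted p = 0.085, 0.34 and 0.36), and 4178 of the 46225 genes. DESeq2 called BAG3 and DNAJB1 (adjusted p = 0.0029 and 0.047), as did edgeR with at least 10 counts in every library (adjusted p = 0.015 and 0.019), and with RLE size factors BAG3 alone was called (edgeR adjusted p = 0.016). Over 22 settings the adjusted p ran from 0.0029 to 0.36 for BAG3, called in 6, and from 0.019 to 0.74 for DNAJB1, called in 2. For BAG3 the log2FC of the third experiment exceeded that of the first by 0.81 ± 0.23 and that of the second exceeded it by 0.75 ± 0.23 (edgeR adjusted p = 0.088 and 0.13). For DNAJB1 the third experiment exceeded the first by 0.56 ± 0.23 and the second by 0.64 ± 0.23 (edgeR adjusted p = 0.50 and 0.48).

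Within groups, the members of a library tended to deviate together. With CPM scaled jointly, the correlation of log2 deviations from the group mean over the 18 libraries had a median of 0.56 over the 45 pairs of members, from −0.08 to 0.97, and was above 0 in 41 pairs. It was highest for HSPA8 with HSPD1 (0.97) and HSPH1 with HSP90AA1 (0.96), and 0.41 for HSPA1A with HSPA1B. All pairs share libraries, depth and the scaling of each library, so these values describe the libraries as much as the genes. Among 9032 genes of at least 10 CPM, the 5 most like DNAJB1 in this measure were DHX34, KAT8, GRWD1, FZR1 and BAG1 (0.947 to 0.956), those most like HSPH1 were MIOS, ZBED5, PFDN2, SH3GLB1 and RDX (0.975 to 0.987), and HSPA1B was most like LUC7L2 (0.939). Other than BAG1 and PFDN2, none of those named is in the chaperone lists used here.

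The wider chaperone network was followed in 8 lists with 83 genes, of which 81 were matched in the files. In the first experiment 12 of 76 tested genes were higher and 18 lower with ABCC1, with a median log2FC of −0.02 beside 0.01 for all genes. Among all 16995 genes 3040 were higher and 3342 lower there, 37.6% in all. In the second 1 of 79 was higher and none lower (median 0.24 beside 0.26 for genes of at least 10 CPM), and in the third 5 of 80 were higher and 2 lower (median 0.10, beside 0.10 for genes of at least 10 CPM). In the mean effect 23 of 80 were higher and 3 lower, with a median of 0.15, beside the 38.1% called higher among genes of at least 10 CPM. With RLE size factors the mean effect gave 16 higher and 4 lower, with at least 10 counts in every library 11 and 10 (median −0.02), and without control replicate 2 of the third experiment 33 and 3. The effect was called different between experiments for none of the 80. The counts moved with the scaling and with single libraries. With size factors from genes of at least 10 CPM none was called in the second experiment (median −0.02), and 7 were higher and 5 lower in the third (median near 0). With the background reads as a covariate 1 was higher and 6 lower in the third, with a median of −0.20, while in the first experiment RLE size factors gave 12 higher and 18 lower and the size factors from genes of at least 10 CPM 12 and 16. The first experiment gave 23 higher and 18 lower without ABCC1 replicate 3, 9 and 10 without control replicate 3, and 1 and 2 with the spread shared. The second gave 13 higher with DESeq2 and none without each of 5 libraries in turn. The third gave 17 higher and none lower without control replicate 2, 2 and 1 without control replicate 1 or 3, and 1 and none without ABCC1 replicate 2 or 3. Genes beyond the 9 that the naming rule gave, which asks for at least 1 CPM (HSF2BP, HSF4, HSPA12A, HSPA4L, HSPA1L, BAG1, BAG5, CLU and CRYAA) are named below because they passed the test, after their values were seen.

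Among nucleotide exchange factors and quality control genes, 7 of 12 were higher in the mean effect and none lower, where 38.1% of the 8251 genes of at least 10 CPM were higher and 208 lower, and 2 of them recurred across experiments. BAG5, a nucleotide exchange factor of HSP70, had 111 ± 4.81 CPM in the controls and 140 ± 5.34 with ABCC1 in the first experiment, 35.6 ± 1.32 and 57.0 ± 7.86 in the second, and 44.9 ± 12.2 and 73.5 ± 2.25 in the third (SD, n = 3). Its log2FC of 0.33, 0.68 and 0.71 were called in all 3 (edgeR adjusted p = 0.00032, 0.031 and 0.0060). The call in the second was lost under 7 of 14 other settings and that in the third under 5 of 14, the background covariate among both, with the log2FC above 0 in each. In the second experiment the size factors from genes of at least 10 CPM were also among them. BAG1, another factor of this kind, went from 103 ± 2.98 to 131 ± 6.68 CPM in the first (log2FC 0.34, edgeR adjusted p = 0.00026) and from 98.1 ± 13.4 to 165 ± 21.9 in the third (0.75, edgeR adjusted p = 0.0074), while the second gave 0.48 and no call (edgeR adjusted p = 0.12). The call in the third was lost under 5 of 14 other settings. With the spread shared across the 18 libraries the calls of BAG5 and BAG1 in the first were lost (edgeR adjusted p = 0.17 and 0.14). So BAG1 and BAG5 rose where their relative BAG3 fell in the first experiment. Both were also called in the mean effect, with log2FC of 0.64 for BAG5 and 0.59 for BAG1, and among the others so were BAG4 (0.51), DNAJC2 (0.33), ST13 (0.32) and STUB1 (0.29). BAG4 was the other gene of the list called in the third experiment (0.66). BAG6 (−0.13), UBB (−0.17) and SQSTM1 (−0.19), the last an autophagy receptor, were lower in the first.

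Among heat shock factors and their regulators, 3 of 7 were higher in the first experiment and 1 of 8 in the third. Of all genes tested 17.9% were called higher in the first and 2.03% in the third. Among genes of at least 10 CPM these shares were 20.2% and 5.83%. HSF2BP, a protein that binds HSF2, rose from 9.87 ± 0.693 to 13.6 ± 0.438 CPM in the first (log2FC 0.46, edgeR adjusted p = 0.00067) and from 12.5 ± 1.84 to 26.2 ± 3.29 in the third (1.07, edgeR adjusted p = 1.17e-05), with 0.63 in the second (edgeR adjusted p = 0.074). Its calls in the first and the third experiments and in the mean effect (0.79) held under each of the 13, 14 and 22 other settings. HSF4 rose in the first, from 3.20 ± 0.428 to 4.71 ± 0.444 CPM (log2FC 0.55, edgeR adjusted p = 0.0052), and gave −0.13 in the third. With the spread shared across the 18 libraries HSF4 was not called in the first (edgeR adjusted p = 0.084). In the mean effect it was called at 0.36 (edgeR adjusted p = 0.048), a call lost under 16 of 22 other settings. DAXX, which binds HSF1 trimers, was called in the first (0.16) and in the mean effect (0.32).

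Among the other HSP70 and HSP110 chaperones 7 of 12 were lower and 1 higher in the first experiment, where 3342 of all 16995 genes were lower, and none was called in the second or the third. HSPA12A, a distant HSP70 relative, fell from 2.80 ± 0.520 to 0.932 ± 0.216 CPM (log2FC −1.55, edgeR adjusted p = 0.00014), with −0.90 and −0.43 in the second and the third, which did not pass, and −0.89 in the mean effect (edgeR adjusted p = 1.36e-06). HSPA4L fell from 42.6 ± 1.36 to 33.1 ± 2.32 CPM in the first (log2FC −0.37, edgeR adjusted p = 0.00082) and was at 0.07 and 0.06 in the others. Its call was lost with the spread shared across the 18 libraries (edgeR adjusted p = 0.60). HSPA12B (−0.87, at a mean of 0.444 CPM), HSPA4 (−0.30), HYOU1 (−0.25), HSPA9 (−0.18), the mitochondrial HSP70, and HSPA14 (−0.13) made up the 7. HSPA1L, whose exons share 80 bases with HSPA1A on the other strand, was the one that rose (log2FC 0.48, edgeR adjusted p = 0.0052). This call too was lost with the shared spread (edgeR adjusted p = 0.46). In the mean effect HSPA5, the HSP70 of the endoplasmic reticulum, was higher (0.39) and HSPA12B lower (−0.66) beside HSPA12A.

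Of the other heat-inducible HSF1 targets 3 of 12 were higher and 2 lower in the first experiment, where 3040 and 3342 of all 16995 genes were. CLU, the secreted chaperone clusterin, fell from 76.1 ± 1.70 to 38.1 ± 1.89 CPM there (log2FC −0.997, edgeR adjusted p = 1.84e-07) and from 52.5 ± 13.9 to 32.7 ± 5.05 in the third (−0.68, edgeR adjusted p = 0.0074), with −0.16 in the second, which did not pass. The call in the first held under 13 of 13 other settings, and that in the third was lost without control replicate 2, ABCC1 replicate 2 or ABCC1 replicate 3. Without single libraries the log2FC of the third ran from −0.77 to −0.44. SERPINH1, a collagen chaperone, was the other target that was lower in the first (−0.32). ZFAND2A (0.30), DEDD2 (0.31) and FKBP4 (0.22) were higher there and again in the mean effect, at 0.38, 0.37 and 0.37, where CLU was lower (−0.55).

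Of the small heat shock proteins none of 3 was called in the first, and CRYAA was lower in the third, at 4.61 ± 0.813 against 1.98 ± 0.877 CPM (log2FC −1.22, edgeR adjusted p = 0.044). It had no count in the first experiment. The olfactory receptor background of the third averaged 1.64 CPM per kilobase in the controls and 1.19 with ABCC1, and with it as a covariate the log2FC was −0.74 and the call was lost (edgeR adjusted p = 0.61), as it was under 9 of 14 other settings in all. HSP90 co-chaperones had 2 of 12 genes higher in the first experiment, UNC45A (0.34) and FKBP4, and 4 lower, STIP1 (−0.21), PTGES3 (−0.19), FKBP5 (−0.17) and CDC37 (−0.14). Of all 16995 genes 3040 were higher and 3342 lower there. UNC45A (0.48), FKBP4 and PPID (0.29) were higher in the mean effect, where 38.1% of genes of at least 10 CPM were called higher. J-domain proteins had 2 of 13 higher, DNAJB2 (0.23) and DNAJB9 (0.20), and 2 lower, DNAJA3 (−0.11) and DNAJB5 (−0.23), in the first. DNAJB4 (0.71) was higher in the third, where 2.03% of all genes were called higher. In the mean effect DNAJB4 (0.47), DNAJB6 (0.37), DNAJA2 (0.36), DNAJC5 (0.31) and DNAJB9 (0.29) were higher. None of the 10 chaperonin genes was called in any single experiment, and CCT6A (0.35) and CCT8 (0.33) were higher in the mean effect.

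**Figure D4:**
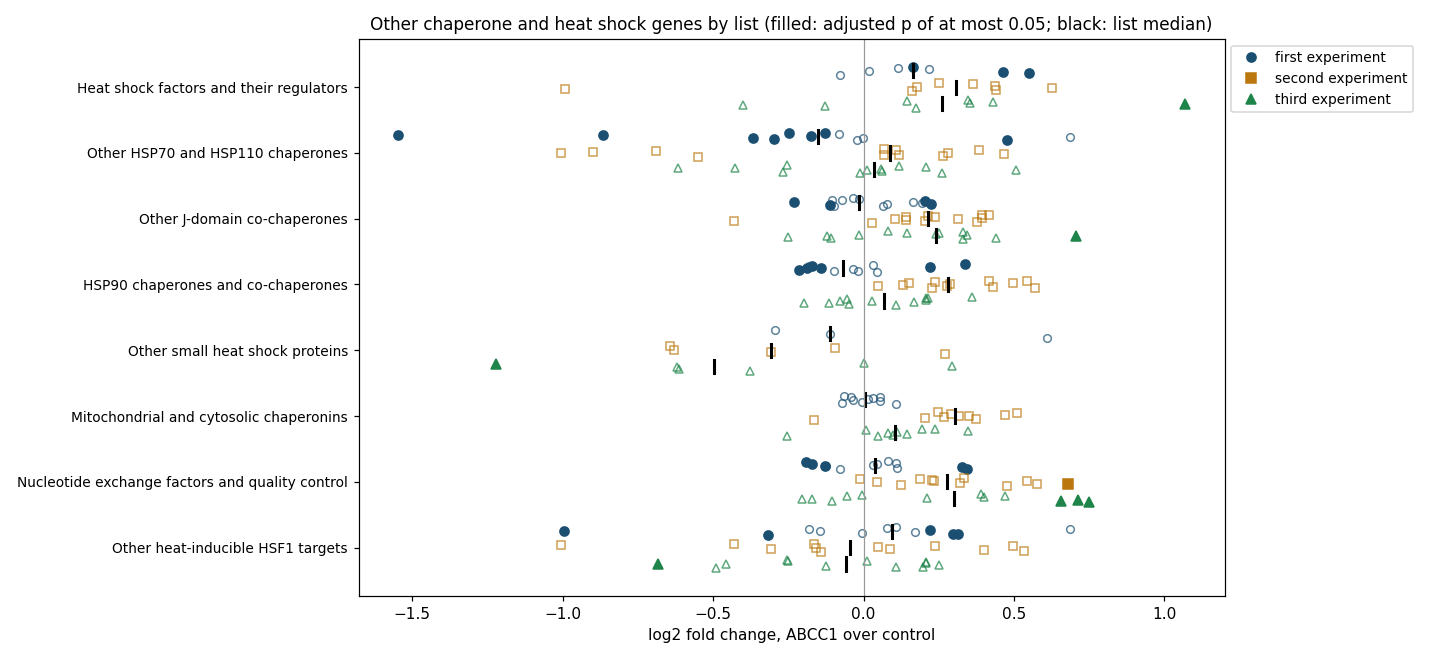
Log2 fold change of ABCC1-overexpressing over control cells (x axis) for the tested genes of 8 chaperone lists (rows), with circles, squares and triangles for the first, second and the third experiments, filled where the adjusted p was at most 0.05, and black bars for list medians. The 3 filled triangles of the nucleotide exchange factors include BAG1 at 0.75 and BAG5 at 0.71, and the lowest filled circle is HSPA12A at −1.55.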

How the data were processed

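RNA of 18 cultures was sequenced in 3 experiments of 3 control and 3 ABCC1 libraries. The deposited values are raw counts per gene, which the authors obtained with bcl2fastq (2.18), STAR (2.7.3a) and featureCounts of Subread (2.0.0), on GRCh37 with Ensembl release 74, without strand and without read pairs that aligned or were assigned to several places. Here each experiment was tested on its own with edgeR (4.0.16, R 4.3.3), by its quasi-likelihood test after filterByExpr with a minimum count of 10 and TMM scaling. A gene was called at a Benjamini-Hochberg adjusted p of at most 0.05 over all genes tested. The mean of the 3 effects and their difference came from a joint fit of 18 libraries with experiment-specific effects. Spike-in and vector sequences stayed out of library sizes and tests. Single members were also tested with an exact two-sided permutation test of log2(CPM + 0.1) (scipy 1.17.1). CPM per kilobase is CPM over the exon length in the files. DESeq2 (1.42.0), RLE size factors, 2 other filters, a replicate block, the olfactory receptor level as a covariate, a shared spread, summed HSPA1A and HSPA1B counts and leaving out each library were the alternatives, and size factors from genes of at least 10 CPM were added after seeing the data, as were all alternatives for the wider lists. The first experiment had no fit with the covariate. The joint fit was run neither with the covariate nor with the size factors from genes of at least 10 CPM.

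The members and lists were chosen with earlier results of these data known. All members were named, and from the wider lists those called the same way in at least 2 experiments, plus up to 3 of each direction with the largest change among those called in each experiment with a mean of at least 1 CPM in it. HSPB9 and HSPB11 were not matched. Single values of some list genes are not reported here. No 2 libraries agreed within counting noise (chi-square from 1.48 to 22.4 per degree of freedom between replicates), so each counted once. The scripts were tested on simulated data. At a log2FC of 0.5 the test recovered 68.5% of changed genes in the first experiment, 0.5% in the second and 1% in the third. For a log2FC of 1 it recovered 85%, 25.5% and 49%. Counting error is small beside the spread between libraries for most members, and the fewest counts were the 50 of HSPA1A in a control library of the third experiment.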

Additional observations from a re-analysis of the deposited data

Results flagged for a closer look

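Spike-in sequences, which enter no comparison, had 57 counts in ABCC1 replicate 3 of the first experiment, against 3 to 6 in the control libraries of that experiment. This is the library that stood apart from its group.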

How the results depend on the processing

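The counts of members called moved by more than 1.5 times in the following settings. Sharing the spread across the 18 libraries left 0 in the first experiment, DESeq2 called 1 in the second, and the background covariate left 0 in the third. For the difference between experiments RLE size factors called 1, and DESeq2 and a minimum of 10 counts in every library called 2 each. Smaller moves were 3 in place of 2 in the first experiment without a filter, 3 in place of 2 in the third with DESeq2, RLE size factors, the minimum of 10 counts, the replicate block and the shared spread, and 2 in place of 3 in the mean effect with RLE, the minimum of 10 counts and DESeq2. Without single libraries the members called were 2 to 3 in the first experiment, 0 to 0 in the second, 1 to 4 in the third, 2 to 7 in the mean effect and 0 to 1 in the difference. Over all genes, the 6382 calls of the first experiment became 1528 with the shared spread and 4636 to 7827 without single libraries. The 581 of the second became 2583 with DESeq2, 1086 with RLE size factors, 1402 without a filter, 215 with size factors from genes of at least 10 CPM, 9 with the covariate, 4923 with the shared spread and 5 to 1359 without single libraries. The 1021 of the third became 1549 with DESeq2, 1725 with the minimum of 10 counts, 1836 with size factors from genes of at least 10 CPM and 394 to 2761 without single libraries. The cause of these shifts was not tested.

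Same-numbered libraries did not deviate together (correlations of −0.04, 0.003 and −0.11 in the first experiment, −0.14, −0.05 and 0.0005 in the second and 0.09, 0.07 and −0.04 in the third), so the numbers were not taken as pairs. The paper describes weekly plating of both lines, and the labels do not say whether the numbers mark weeks. With the replicate block 5356, 709 and 1885 genes were called in the first, second and the third experiments, 5774 in the mean effect and 389 in the difference. In the third the block called 3 members in place of 2.

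None of the values that changed sign had been called. In the first experiment HSPD1 was at 0.012 without a filter, 0.086 with the shared spread and −0.050 to 0.056 without single libraries, HSPB1 at −0.038 to 0.27 and HSF1 at −0.11 to 0.13. In the second HSPA1A summed with HSPA1B was at 0.11 and alone at −0.33 to 0.13 without single libraries, HSPA1B at −0.094 with the covariate, HSPA8 at −0.060 with size factors from genes of at least 10 CPM, and HSP90AA1 at 0.12 with DESeq2, 0.087 with RLE, 0.034 without a filter and −0.092 to 0.14 without single libraries. In the third experiment these size factors gave −0.024 for HSPA8, −0.070 for HSPD1 and −0.088 for HSF1, and the covariate −0.33 for HSPA8, −0.30 for HSPH1, −0.31 for HSP90AA1, −0.42 for HSPD1 and −0.37 for HSF1. Without single libraries HSPA8 was at −0.032 to 0.33, HSPD1 at −0.068 to 0.31 and HSF1 at −0.10 to 0.27. In the mean effect the minimum of 10 counts gave −0.069 for HSPA8, −0.086 for HSP90AA1 and −0.022 for BAG3.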
